A study of Mus musculus with 4 samples.

Results

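The maternal liver response to food deprivation was measured on 2 of the 4 two-colour arrays of the study, the pair on which RNA from the livers of food-deprived mothers was set against RNA from the livers of control mothers. All mothers were C57BL/6J mice, and food deprivation is the only treatment the labels name. The housing text gives free access to chow and tap water and does not say how food was withheld. Per the design text, RNA of 5 to 10 animals was pooled for each condition. Array 1 carried the food-deprived pool in the red dye Cy5 and the control pool in the green dye Cy3, and array 2 carried them the other way round. Both arrays were taken to hold the same pools, so each condition is 1 sample, the spread between the arrays is technical, and no significance test was possible. Whether the pools behind the labels' numbers 1 and 2 are the same is not settled by the labels, and the labels give neither the length of the deprivation nor the stage of gestation nor the age of the mothers.

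All gene probes were considered, 41174 probes for 27669 gene names, of which 15685 genes had a signal well above background in at least one condition on both arrays and are called measured below. Each gene is described by its log2 ratio of food-deprived over control liver, first on array 1 and then on array 2. A gene is said to have risen or fallen only when the mean of these ratios reached 2-fold and each array reached 1.5-fold in that direction. By this rule 628 genes were called, 4.0% of the measured genes, with 286 higher (1.82%) and 342 lower (2.18%) in the food-deprived pool. The members of the pathway and cell type lists below number 1705 genes, of which 1523 were measured and 270 were called. The lists were chosen with earlier results of these data known. A share of calls above that of all measured genes is therefore a description and no test of a list.

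In the fasting mammal, falling insulin and rising glucagon, glucocorticoids and catecholamines turn the liver from storing sugar as glycogen and fat to releasing glucose and burning fatty acids that arrive from adipose tissue. PPARA, a nuclear receptor that is activated by fatty acids, drives the genes of fatty acid oxidation in that state. SREBP proteins, which are released from the endoplasmic reticulum when sterols run short or insulin is high, drive the genes of cholesterol and fatty acid synthesis in the fed state.

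The arrays agreed closely after the dyes were turned. Across measured genes the turned ratios correlated at 0.87 (Pearson) and 0.72 (Spearman), a description over genes that share the same pools. The technical SD of a gene's log2 ratio on a single array, taken from the differences between the arrays, was 0.17. The median over all measured genes was -0.01, 7506 of the 15685 genes lay above 0, and 88.4% changed by less than 1.5-fold. In each dye of each array, 53.2% to 63.6% of the gene spots exceeded background clearly, and saturation was seen nowhere. With the sign of array 2 left unturned no gene met the rule. The number of calls depended on the normalisation: centring each array on its median in place of a loess curve gave 77 genes higher and 91 lower. The medians over measured genes were then 0.78 on array 1 and -0.85 on array 2, and by the mean of both arrays alone 289 genes were higher and 348 lower by 2-fold. Of the 210 called genes named below, 129 lost their call with median centring, while the mean of both arrays stayed between 0.97 and 1.06 times the value given. Loess values are given below.

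**Figure D1:**
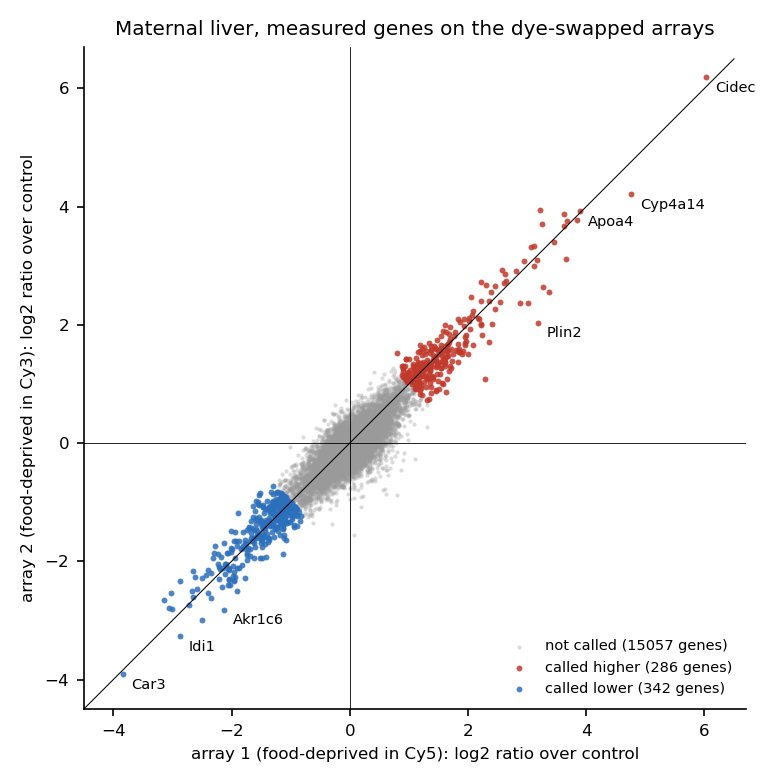
Log2 ratio of food-deprived over control maternal liver on array 1 (horizontal axis) and on array 2 (vertical axis), 1 point per measured gene, with the 286 genes called higher in red, the 342 called lower in blue and the rest in grey. The called genes lie along the diagonal line of equal ratios. Cidec stands alone at the upper end with 6.03 and 6.19, and Car3 marks the lower end with -3.84 and -3.91.

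The largest rise of a single gene, and the largest share of risen genes among the pathway lists, were found in the lipid droplet, the particle in which cells store triglyceride. The list has 20 measured members, of which 10 rose and 0 fell, and its median was 0.99. Cidec, which encodes a protein that fuses droplets into larger ones, had log2 levels of 7.78 and 7.93 in the control pool and of 13.82 and 14.13 in the food-deprived pool. The pools were far apart on both arrays, a rise of 69.2-fold. The related fusion gene Cidea rose 3.88-fold (1.86 and 2.05), while the third member of that family, Cideb, had ratios of 0.02 and -0.14.

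Among the coat proteins, which cover the droplet and control access to it, Plin4 rose 8.32-fold (3.12 and 2.99) and Plin2 rose 6.12-fold (3.19 and 2.04). The arrays differed most for Plin2, though both put it above 2-fold. Plin3 had ratios of 0.32 and 0.34, and Plin5 was lost to an outlier spot. The lipases that release fatty acids from the droplet moved unequally: Pnpla2, the adipose triglyceride lipase, rose 3.59-fold (1.97 and 1.72) and Mgll, the monoglyceride lipase, rose 2.55-fold (1.32 and 1.37). The hormone-sensitive lipase Lipe had 0.15 and 0.12, and Pnpla3 had -0.67 and -0.64. Hilpda, an inhibitor of Pnpla2, rose 7.28-fold (2.81 and 2.92), and the other inhibitor on the list, G0s2, came close to the threshold with 0.99 and 0.91. The droplet enzymes Hsd17b11 (1.35 and 1.22) and Hsd17b13 (1.25 and 1.27) and the droplet budding gene Fitm2 (1.12 and 0.96) completed the rises.

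Several of these genes are also known from fat cells, so the fat cell markers were read beside them. Adipoq, Lep, Retn, Cfd and Plin1, the defining genes of the adipocyte, did not stand clearly above background in either pool, and 7 of the 12 fat cell markers behaved this way. Of the 5 measured markers Cidec and Cidea rose and Fabp4, Pparg and Lpl were not called. The log2 of the summed level of the measured markers was 11.27 and 11.57 in the control pool and 14.13 and 14.41 in the food-deprived pool, where Cidec alone had 13.82 and 14.13. In tissue RNA, fewer cells of a type and less RNA per cell cannot be told apart.

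Genes of fatty acid oxidation rose in each of the 3 compartments that carry it out. In the endoplasmic reticulum, where Cyp4a enzymes oxidise the far end of the chain, the 4 measured Cyp4a genes rose. Cyp4a12a rose 6.67-fold (2.62 and 2.85) by the brighter of its 2 measured probes. The mean over both probes was 1.46, so the other probe gave a smaller ratio. Cyp4a10 rose 5.18-fold (2.35 and 2.40), and both genes lay below Cyp4a14 (4.76 and 4.21) and Cyp4a31 (3.16 and 3.09). Members of this family are close in sequence, and a probe of one may also bind RNA of another. Aldh3a2, which oxidises the resulting fatty aldehydes, rose 2.14-fold (1.21 and 0.98). The Cyp4f branch did not follow, as Cyp4f14 fell 3.93-fold (-2.08 and -1.87) and Cyp4f13, Cyp4f16 and Cyp4f18 were not called.

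In the mitochondrion, 6 of 26 genes rose and 0 fell, with a median of 0.64 and 21 members above 0. The rises lay mostly at entry: the carnitine transporter Slc22a5 rose 3.55-fold (1.95 and 1.70), Cpt1a, the rate-limiting carnitine palmitoyltransferase of liver, rose 2.51-fold (1.48 and 1.18), Crat rose 2.27-fold (1.22 and 1.15) and Cpt1b rose 2.22-fold (1.12 and 1.18), though not with the mean over its probes (0.90). Cpt2 (0.89 and 1.02) and the carnitine carrier Slc25a20 (0.90 and 0.97) stood just under the threshold. Etfdh, which passes electrons from the dehydrogenases to the respiratory chain, rose 2.17-fold (1.29 and 0.94). Within the oxidation spiral, the long-chain dehydrogenase Acadl rose 2.02-fold (1.23 and 0.81) and the medium-chain Acadm did not pass (0.87 and 1.02). Of the 7 measured spiral genes other than the acyl-CoA dehydrogenases, 5 lay above 0 and 0 were called (median 0.52). Hadh (-0.39 and -0.23) and Echs1 (-0.33 and -0.38), of the short-chain steps, lay below 0.

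In the peroxisome, 8 of 42 genes rose and 2 fell (median 0.25). Ehhadh (3.38 and 2.55), Acaa1b (1.95 and 1.67), Eci2 (1.22 and 1.14) and Acaa1a (1.18 and 1.02) belong to its oxidation path. Pex11a, which drives peroxisome division, rose 4.47-fold (2.09 and 2.23). Hao2, a hydroxyacid oxidase, fell 6.07-fold (-2.87 and -2.34), and Pecr, a reductase that runs in the direction of chain elongation, fell 2.38-fold (-1.37 and -1.13). Of the acyl-CoA thioesterases, which free fatty acids from coenzyme A, 3 of 12 rose: the cytosolic Acot1 (3.85 and 3.77) and Acot12 (0.97 and 1.1) and the mitochondrial Acot2 (2.46 and 2.67).

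**Figure D2:**
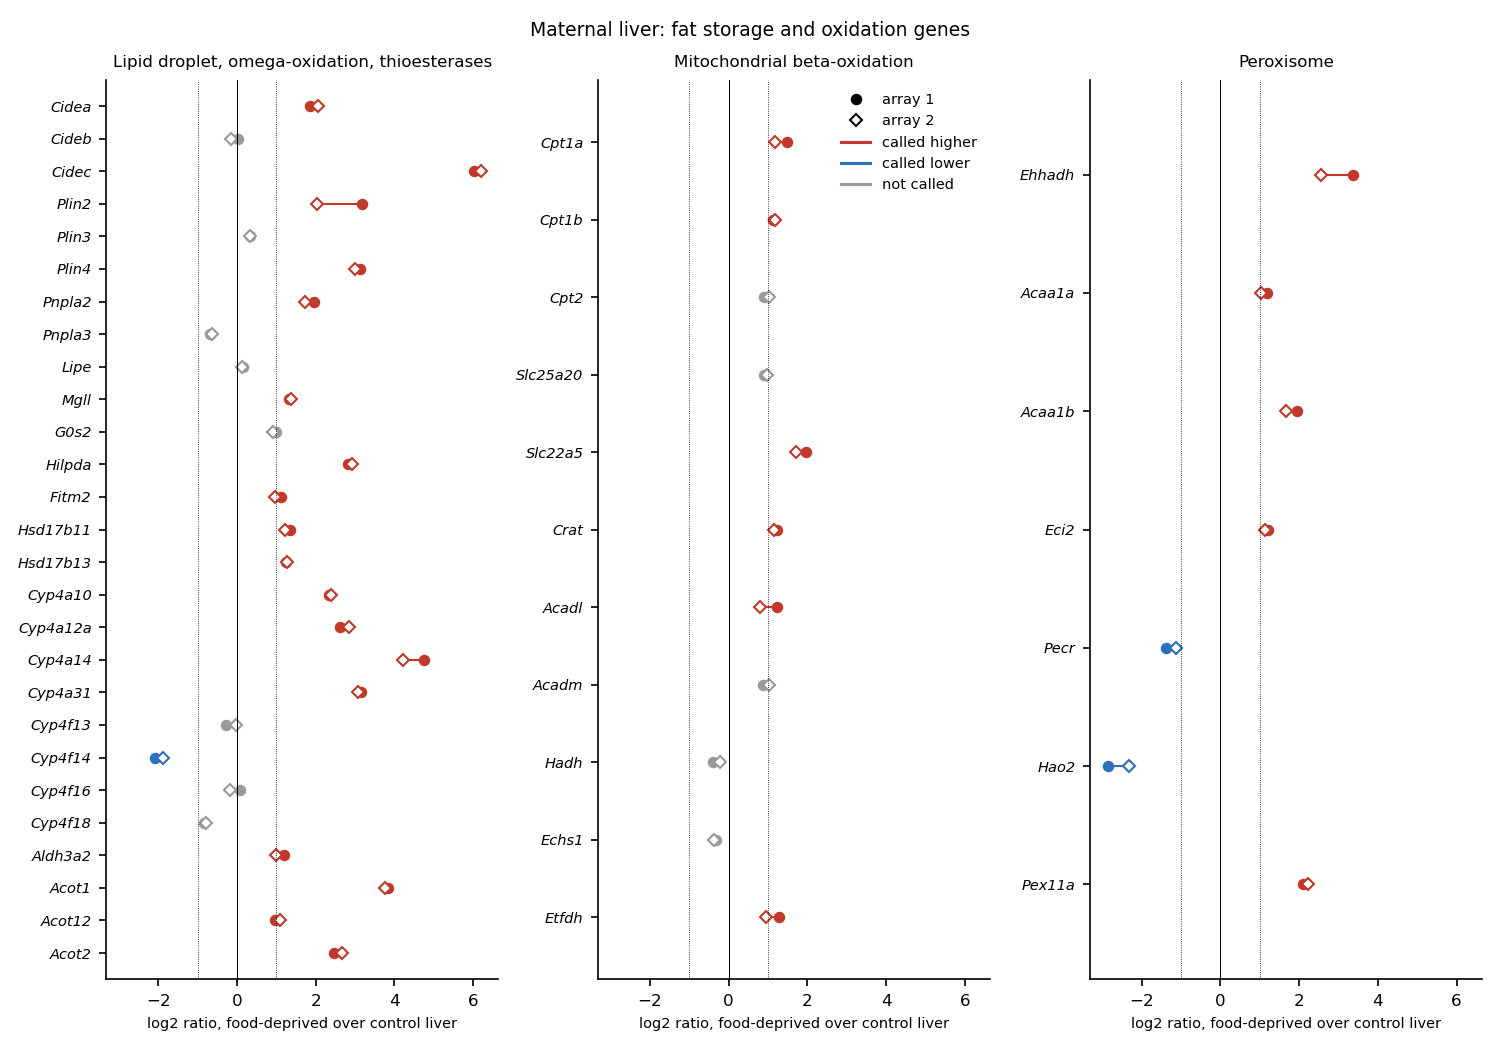
Log2 ratio of food-deprived over control maternal liver on array 1 (filled circles) and array 2 (open diamonds) for the genes of the lipid droplet, omega-oxidation, thioesterase, mitochondrial and peroxisomal lists that the text describes, with dotted lines at 2-fold. Red genes were called higher and blue genes lower. The droplet genes Cidec, Plin2, Plin4 and Hilpda and the Cyp4a genes reach the right side, and Hao2 and Cyp4f14 lie to the left. The 11 mitochondrial genes drawn gather near the upper 2-fold line apart from Hadh and Echs1 below 0. The median of all 26 measured mitochondrial genes was 0.64.

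Uptake and ketone body genes did not move as a group. The fatty acid translocase gene Cd36 rose 3.67-fold (1.95 and 1.80) and Fabp2, a fatty acid binding protein better known from intestine, rose 2.58-fold (1.19 and 1.55), while the hepatic lipase Lipc (-1.20 and -1.29) and the medium-chain activating enzymes Acsm1 (-1.36 and -1.34) and Acsm5 (-1.24 and -1.29) fell. Bdh1, the mitochondrial enzyme that makes hydroxybutyrate, was not called (-0.33 and 0.06). Bdh2, a cytosolic dehydrogenase named after ketone bodies, fell 4.20-fold (-2.10 and -2.04).

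Cholesterol synthesis had the largest share of fallen genes among the pathway lists. Of its 21 genes, all measured, 15 fell and 0 rose, and the median was -1.62 over both arrays and -1.48 on array 2 alone. Acat2, which starts the pathway from acetyl-CoA, had control levels of 12.62 and 12.60 and food-deprived levels of 10.67 and 10.42. The food-deprived pool was lower on both arrays, by 4.20-fold. The HMG-CoA synthase gene Hmgcs1 fell 2.92-fold (-1.63 and -1.46), Pmvk 2.59-fold (-1.39 and -1.36), Mvd 3.52-fold (-1.84 and -1.80) and Mvk 2.08-fold (-1.19 and -0.93). With the mean over all probes of a gene in place of the brightest, Hmgcs1 (-0.92) and Mvk (-0.88) did not pass the rule.

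By their medians the isoprenoid (-2.23) and squalene (-1.78) steps fell most, though each has 3 genes, of which 2 fell. Idi1 fell 8.40-fold (-2.87 and -3.27), Sqle 6.69-fold (-2.50 and -2.99), Fdps 4.69-fold (-2.05 and -2.41) and Fdft1 3.44-fold (-1.62 and -1.94). Ggps1, which leads away from sterols to protein prenylation, had 0.37 and 0.08. In the last stretch from lanosterol, Msmo1 fell 7.47-fold (-3.15 and -2.66), Cyp51 3.51-fold, Nsdhl 3.34-fold, Sc5d 3.07-fold and Dhcr7 2.49-fold. Hsd17b7, whose product acts in the same stretch, lay on the other side of 0 (0.92 and 0.87), and Lss, Ebp and Tm7sf2 had ratios below 0 that did not pass the rule.

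**Figure D3:**
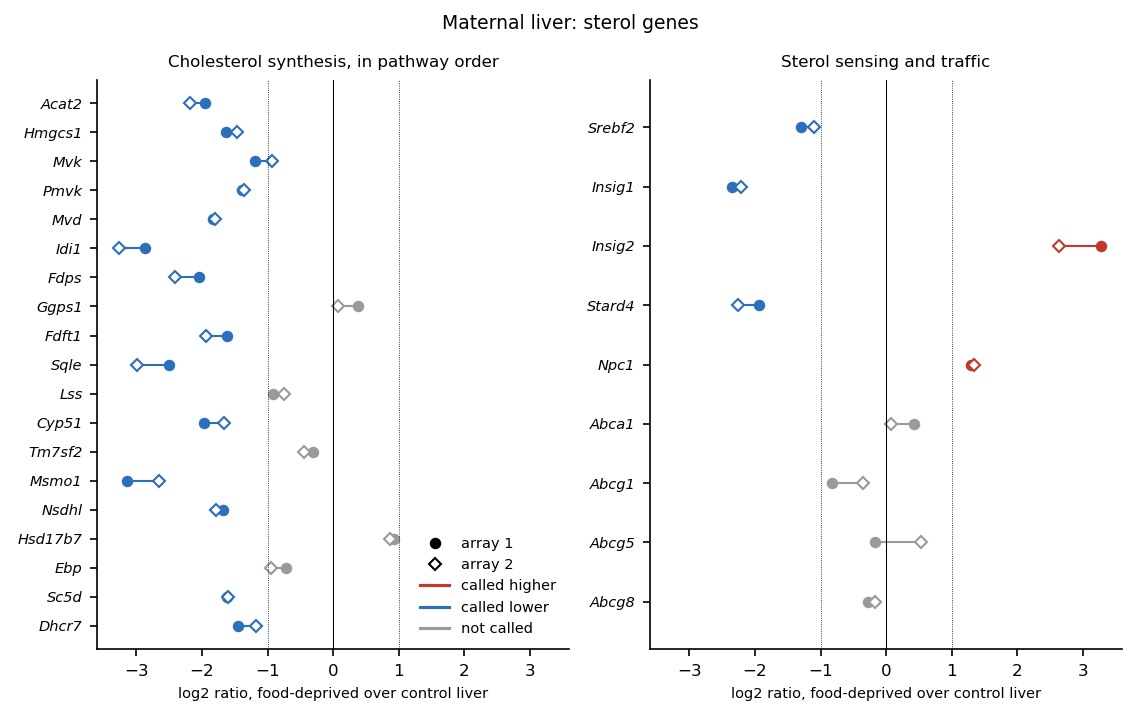
Log2 ratio of food-deprived over control maternal liver on array 1 (filled circles) and array 2 (open diamonds) for the 19 cholesterol synthesis genes described in the text, from first to last step (left), and for 9 genes of sterol sensing and traffic (right), with dotted lines at 2-fold. On the left 14 genes were called lower, their means beyond the lower line and only Ggps1 and Hsd17b7 lie to the right of 0. On the right Insig1 and Insig2 lie on opposite sides.

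The genes that sense, take up and move sterols split, with 2 rises and 5 falls among 26. Srebf2, which encodes the SREBP of the cholesterol pathway, fell 2.30-fold (-1.30 and -1.1; -0.67 over all its probes, not a call), and the sterol carrier Stard4 fell 4.28-fold (-1.93 and -2.26). The proteins that hold SREBP back in the endoplasmic reticulum moved apart. Insig1 fell 4.84-fold (-2.34 and -2.21) and Insig2 rose 7.74-fold (3.27 and 2.64). Npc1, which exports cholesterol from lysosomes, rose 2.49-fold (1.29 and 1.34), and the efflux transporters Abca1, Abcg1, Abcg5 and Abcg8 were not called.

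Since these genes fell together, their promoters were read in the RefSeq promoter table of GRCm38.p6, which spans 250 bases before to 50 after each start and held 16 of the 21 genes. The motif CCAAT, bound by the factor NF-Y, was present on one or the other strand in 15 of the 16, and in 10 of the 11 of these that fell. The share over all 27025 genes with an entry is 41.1%, and over all 32851 promoters it is 37.4%. The sterol response element TCACNCCAC was found in 1 of the 16, Hmgcs1, against 1.44% of all genes and 1.24% of all promoters. A match is only a match of letters, and genes with divergent forms of the element are not found by it. The stretches of the fallen genes that hold more than 1 match before the start are given below, 5′ to 3′ along the gene, with matches in capitals (ATTGG is CCAAT on the other strand).
Hmgcs1, chr13:119690163-119690234, plus strand: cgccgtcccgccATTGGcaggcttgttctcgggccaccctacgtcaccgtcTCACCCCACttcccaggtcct
Mvk, chr5:114444190-114444268, plus strand: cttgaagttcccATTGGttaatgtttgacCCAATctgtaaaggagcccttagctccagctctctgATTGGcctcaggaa
Mvd, chr8:122443433-122443494, minus strand: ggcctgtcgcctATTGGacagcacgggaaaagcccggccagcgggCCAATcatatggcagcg
Idi1, chr13:8885549-8885605, plus strand: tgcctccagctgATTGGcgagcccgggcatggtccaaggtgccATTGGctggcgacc
Msmo1, chr8:64733617-64733686, minus strand: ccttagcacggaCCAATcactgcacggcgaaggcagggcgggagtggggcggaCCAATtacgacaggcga
The same search was made in the 9 risen droplet, 4 risen mitochondrial and 7 risen peroxisomal genes with an entry. No match to either searched form of the direct repeat bound by PPARA was found in them. These forms are held by 0.207% and 0.0396% of all promoters, so a match in so few genes was unlikely from the outset. The absence of a match therefore cannot show whether PPARA acts at these genes. The risen Cyp4a genes had no entry. CCAAT was in 3 of 9 risen droplet genes, 2 of 4 risen mitochondrial genes and 6 of 7 risen peroxisomal genes. The sterol response element was also in 1 of the 7 risen peroxisomal genes, Ehhadh, so it was not confined to the fallen genes. It was in 0 of the 9 droplet and 0 of the 4 mitochondrial genes.

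Fatty acid synthesis fell in part. Of 22 genes 5 fell and 0 rose (median -0.42). These were the regulators Srebf1 (-2.71 and -2.74), Thrsp (-2.35 and -2.62) and Mid1ip1, an activator of acetyl-CoA carboxylase, which fell 4.02-fold (-2.28 and -1.74), with Fasn (-1.68 and -1.91) and Acss2, which makes acetyl-CoA from acetate and fell 2.74-fold (-1.44 and -1.47). The carboxylase genes were not called and lay on either side of 0, with -0.27 and -0.50 for the cytosolic Acaca and 0.76 and 1.1 for the mitochondrial Acacb. Elovl6, which extends palmitate, fell 2.62-fold (-1.53 and -1.24), while Elovl5, which extends polyunsaturated chains, rose (1.90 and 1.51).

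Triglyceride assembly did not follow fatty acid synthesis. The phosphatidate phosphatases Lpin1 (2.01 and 2.07) and Lpin2 (2.23 and 1.83) rose 4.11-fold and 4.09-fold, and the acyltransferases Gpat3 (1.5 and 1.54) and Gpat4 (1.14 and 1.29) rose 2.87-fold and 2.32-fold. Lpin3 (0.20 and 0.37) and the main liver acyltransferase Gpam (0.65 and 0.45) were not called. At the last step Dgat1 had 0.87 and 0.83 and Dgat2 had -0.78 and -1.05, neither past the rule. Of the lipoprotein genes, Apoa5, which promotes triglyceride clearance, rose 2.46-fold (1.36 and 1.24) beside Apoa4 (3.89 and 3.93), and Saa4 fell 2.96-fold (-1.51 and -1.62).

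In glucose metabolism, 7 of 31 genes of gluconeogenesis and its substrates rose and 0 fell (median 0.37, 28 members above 0). Gpt2, the alanine aminotransferase, and Got1, the aspartate aminotransferase, rose 3.32-fold and 3.24-fold. The enzymes G6pc, which releases free glucose, and Pck1, which makes phosphoenolpyruvate, rose 2.85-fold (1.37 and 1.65) and 2.07-fold (1.13 and 0.96). Gpd2, which brings glycerol phosphate into the pathway, rose 2.25-fold (1.19 and 1.15). The coactivator gene Ppargc1a lay at the threshold with 0.99 on both arrays and was not called.

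Glycolysis gave 1 call, a rise, among 31 genes. The liver pyruvate kinase gene Pklr had -0.45 and -0.49. Pdk4, which switches off pyruvate dehydrogenase, rose 12.5-fold (3.63 and 3.67), while its relatives Pdk1 (-0.68 and -0.68) and Pdk2 (-0.24 and -0.10) did not rise.

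The subunits that bring protein phosphatase 1 to glycogen moved in opposite directions. Ppp1r3g rose 10.8-fold (3.45 and 3.40), whereas Ppp1r3c fell 4.10-fold (-1.78 and -2.29) and Ppp1r3b fell 2.98-fold (-1.57 and -1.58). Ppp1r3d had -0.03 on both arrays. The liver glycogen synthase gene Gys2 rose 2.08-fold (1.02 and 1.09) and the liver glycogen phosphorylase gene Pygl fell 2.28-fold (-1.40 and -0.98), though not with the mean over its probes (-0.75).

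Secreted hormones and receptors were among the strongest changes of single genes. Of 44 genes of this axis 6 rose and 4 fell. Lepr, the leptin receptor gene, had control levels of 7.05 and 6.45 and food-deprived levels of 10.11 and 9.76. It rose 9.09-fold, with the pools apart on both arrays. The hepatokines Fgf21 (2.58 and 2.93) and Angptl4 (1.30 and 1.13), an inhibitor of lipoprotein lipase, rose, and Enho, which encodes adropin, fell 3.30-fold (-1.94 and -1.51).

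In the growth factor axis, Igfbp1 rose 10.4-fold (3.66 and 3.11) and Igfals, which stabilises circulating IGF, fell 2.43-fold (-1.58 and -0.98). Igf1 itself had 0.05 and -0.08, and Igfbp2 had 0.31 and 0.43. The activin subunit gene Inhbe rose 2.71-fold (1.51 and 1.37) and so did Fst, the gene of the activin antagonist follistatin, by 2.73-fold (1.4 and 1.5). Inhba, Inhbb and Inhbc were not called.

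The adrenergic receptor genes changed in opposite directions. Adra2a rose 11.1-fold (3.25 and 3.70), from a control signal that was well above background on 1 of the 2 arrays. Adra1b, the main alpha-1 receptor gene of rodent liver, fell 4.52-fold (-2.04 and -2.32; -1.38 over all its probes), and the vasopressin receptor gene Avpr1a fell 2.11-fold (-0.84 and -1.32). The beta receptor gene Adrb1 and the glucagon receptor gene Gcgr (-0.11 and -0.14) were not called.

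Of 31 nuclear receptors and liver transcription factors only Nr4a1 (1.71 and 1.60) rose and only the oestrogen receptor gene Esr1 (-1.43 and -1.71) fell by the rule. Ppara had 0.31 and -0.01 and was not called. Nr1h4, Hnf4a and the glucocorticoid receptor gene Nr3c1 (-0.58 and -0.54) were not called. Of 21 glucocorticoid-responsive genes 7 rose and 2 fell, the rises led by Igfbp1, Gadd45g (2.94 and 3.08) and Lpin1, with Cdkn1a, an inhibitor of cell division, up 2.63-fold (1.48 and 1.30). Serpina6, which carries corticosteroid in blood, fell 2.83-fold (-1.37 and -1.64), and Fkbp5 (0.12 and 0.37) and Tsc22d3 (-0.82 and -0.35), widely used reporters of glucocorticoid action, were not called.

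Among genes of bile acid, steroid and drug metabolism falls outnumbered rises. In bile acid synthesis 5 of 16 genes fell and 1 rose. Cyp7a1, the rate-limiting enzyme, fell 4.48-fold (-2.11 and -2.21), and Akr1c6 fell 5.54-fold (-2.12 and -2.82), Cyp2c70, which makes the muricholic acids of mice, 4.92-fold (-2.16 and -2.43), Akr1d1 2.72-fold (-1.59 and -1.31) and Cyp7b1 of the alternative route 2.31-fold (-1.14 and -1.28). Cyp8b1, which makes cholic acid, was the gene that rose (1.19 and 1.66). At the canalicular membrane the bile salt pump gene Abcb11 fell 4.84-fold (-2.40 and -2.15), whereas the phospholipid exporter gene Abcb4 rose 2.32-fold (1.22 and 1.22).

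Among cytochrome P450 families 1 to 3 and their electron donors 11 of 40 genes fell and 2 rose (median -0.53, 30 below 0). Of the Cyp2c genes measured on this list, Cyp2c29, Cyp2c54, Cyp2c23, Cyp2c37, Cyp2c40 and Cyp2c39 fell between 2.05-fold and 2.82-fold. Cyp2c70, given above with bile acid synthesis, fell further (4.92-fold). Cyp2g1 fell 5.32-fold (-2.66 and -2.17) and Cyp1a2 fell 2.55-fold (-1.34 and -1.37). Cyp2e1, which handles ethanol and ketones, had 0.37 and -0.06. The genes that rose serve the family as a whole, the reductase Por (1.65 and 1.57) and the first enzyme of heme synthesis, Alas1 (1.13 and 0.92). Conjugating and other drug enzymes gave 13 falls and 1 rise among 60 (median -0.58), with Gsta3 4.61-fold (-1.90 and -2.51), Gsta1 2.58-fold (-1.39 and -1.34) and Gstm1 2.22-fold (-0.90 and -1.41) lower. The rise was that of Ephx2, the soluble epoxide hydrolase of fatty acid epoxides (1.54 and 1.27). Many of these genes have close relatives, whose RNA a probe may share.

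On the list of steroid metabolism and sex-biased genes 13 of 34 fell and 4 rose. All 6 measured aldo-keto reductases of the list lay below 0 and 5 fell, among them Akr1c20 4.76-fold (-2.21 and -2.29), Akr1c14 4.49-fold (-2.04 and -2.29) and Akr1c19 3.55-fold (-1.91 and -1.75). The 3-beta-hydroxysteroid dehydrogenase genes Hsd3b3 and Hsd3b2 fell 4.24-fold and 3.79-fold, and the steroid reductase gene Srd5a1 fell 3.08-fold (-1.49 and -1.76), though not with the mean over its probes (-0.97). Cyp17a1, best known from steroid-making glands, rose 2.46-fold (1.32 and 1.28). In retinoid metabolism the retinoic acid-degrading Cyp26a1 fell 7.49-fold (-3.0 and -2.81), Ttr, which carries retinol-binding protein and thyroid hormone, fell 3.61-fold (-1.74 and -1.97), and Retsat, a retinol saturase, rose 4.35-fold (2.23 and 2.02). Among carbonic anhydrases Car3 fell 14.7-fold (-3.84 and -3.91), Car8 3.29-fold (-1.49 and -1.95) and the mitochondrial Car5a 2.91-fold (-1.65 and -1.44), and the water channel gene Aqp8 fell 6.85-fold (-3.02 and -2.53).

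Amino acid genes changed one at a time. Of 57 catabolic genes 5 rose and 4 fell with a median of -0.16. Aass, the first enzyme of lysine breakdown, rose 3.66-fold (2.08 and 1.66), Tdo2, which opens the ring of tryptophan, rose 3.08-fold (1.61 and 1.64), and further down the tryptophan path Afmid (-1.17 and -1.23) and Kyat1 (-1.20 on both arrays) fell 2.30-fold each. Csad, an enzyme of taurine synthesis, rose 2.24-fold (1.16 and 1.18), while the taurine transporter gene Slc6a6 fell 2.03-fold (-1.21 and -0.83). Tat, Sds, Arg1, Mat1a, Hal and Prodh, which would belong here, were lost to outlier spots.

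Among amino acid transporters and carriers there was a rise of the cationic amino acid transporter Slc7a2 (1.53 and 1.57, 2.93-fold) and of the mitochondrial carrier Slc25a47 (1.91 and 1.56, 3.33-fold). In the urea cycle Asl rose (1.36 and 1.53), Otc fell (-1.14 and -0.95) and Cps1 did not pass (0.98 and 0.79). Of 12 measured targets of ATF4, the factor of the amino acid and stress response, 2 rose, Ddit4 and Sesn2. Sesn2, an inhibitor of the growth kinase mTORC1, rose 2.36-fold (1.17 and 1.31), though not with the mean over its probes (0.88). Atf4 (-0.07 and 0.19), Asns (0.50 and 0.42) and Ddit3 (-0.47 and -0.21) were not called. Eif4ebp3, an inhibitor of cap-dependent translation, rose 13.1-fold (3.67 and 3.75) whereas Eif4ebp1 and Eif4ebp2 had ratios of 0.70 and 0.91 and of -0.48 and -0.39. Nnmt, which methylates nicotinamide, rose 2.65-fold (1.54 and 1.27), and Gamt, which makes creatine, fell 2.53-fold (-1.31 and -1.37).

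Genes of protein folding in the endoplasmic reticulum lay mostly below 0. Of 32 members 6 fell, none rose and 27 lay below 0 (median -0.47). Sdf2l1 fell 4.27-fold (-2.05 and -2.14), the disulfide isomerase Pdia6 2.87-fold (-1.45 and -1.59), Edem1, which directs misfolded proteins to degradation, 2.73-fold (-1.48 and -1.42), Hyou1 2.45-fold (-1.54 and -1.04) and Pdia4 2.39-fold (-1.28 and -1.23). The sensors Xbp1, Ern1 and Atf6 and the chaperone Hspa5 (-0.12 and -0.35) were not called. Serpinh1, the collagen chaperone of the same compartment, fell 2.40-fold (-1.41 and -1.12). Cytosolic heat shock genes showed a single rise, Hspa8 (0.81 and 1.53), beside the cold-inducible RNA-binding protein genes Rbm3, 4.95-fold (2.21 and 2.40), and Cirbp, 2.82-fold (1.61 and 1.38).

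The parts of the proteasome, which degrades tagged proteins, differed. All 12 measured subunits of the core particle lay above 0 with a median of 0.36, and all 17 of the regulatory lid and base lay above 0 with a median of 0.45, against 7506 of 15685 genes overall. Only Psmd4, a ubiquitin receptor, reached the rule (1.16 and 1.31, 2.36-fold), and with the mean over its probes it did not (0.79). The 4 measured genes of the immunoproteasome, the form made under interferon, all fell: Psmb10 3.01-fold (-1.57 and -1.61), Psmb9 2.31-fold (-1.15 and -1.26), Psmb8 2.14-fold (-1.07 and -1.13) and Psme2 2.07-fold (-0.89 and -1.21). In autophagy and lysosome 3 of 47 rose, namely Ctsl (1.56 and 1.47), Bnip3 (1.16 and 0.97) and Wipi1 (0.97 and 1.04), and the protease gene Ctsc fell 2.50-fold (-1.22 and -1.42). Of 48 ribosomal protein genes none was called and 41 lay above 0 (median 0.16). Of 63 genes of oxidative phosphorylation only the cytochrome c gene Cycs rose (1.18 and 1.33), and with the mean over its probes it did not pass (0.81).

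Interferon-responsive genes lay below 0 with a single exception. Among 47 measured genes 12 fell and 0 rose, 46 lay below 0 and the median was -0.61. The GTPase gene Gbp6 fell 3.46-fold (-1.93 and -1.66), the chemokine genes Cxcl9 and Cxcl10 fell 2.87-fold (-1.57 and -1.48) and 2.36-fold (-1.11 and -1.37), the ubiquitin-like Isg15 fell 2.21-fold (-1.24 and -1.04) and the regulator Irf1 fell 2.05-fold (-1.13 and -0.94; -0.71 over all its probes, not a call). The antigen presentation genes formed the weakest group, with none of 11 called, a median of -0.36 and H2-K1 at -0.05 and -0.16.

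Markers of Kupffer cells, the resident macrophages of liver, moved with these genes. Of 20 measured markers 5 fell, 1 rose and 17 lay below 0 (median -0.55), and the log2 of their summed level was 15.47 and 15.42 in the control pool and 14.80 and 14.79 in the food-deprived pool. Adgre1 fell 2.22-fold (-1.16 and -1.14), Folr2 2.16-fold and the iron exporter gene Slc40a1 2.00-fold (-1.01 and -1.0), while Cd163 had 0.49 and 0.21 and Marco had -0.12 and 0.35. Cd14, which hepatocytes express as well, rose (1.19 and 1.30). Of 11 granulocyte and monocyte markers Ly6c1 fell 2.92-fold (-1.54 and -1.55) and 6 lay above 0, with summed log2 levels of 11.94 and 11.89 in the control pool and 11.33 and 11.29 in the food-deprived pool. Of 13 lymphocyte markers 0 were called, with summed log2 levels between 10.66 and 10.73 in both pools. The part of any of these cells in the interferon and immunoproteasome values was not tested.

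Of 56 cell division genes 14 fell and 0 rose (median -0.49). Of 26 genes of G2 and mitosis 10 fell, with Cdc20 5.02-fold (-2.43 and -2.23), the survivin gene Birc5 4.47-fold (-2.19 and -2.13), Mki67, the gene of the Ki-67 antigen, 2.98-fold (-1.71 and -1.44) and the motor protein genes Cenpe and Kif20a 2.66-fold and 2.65-fold. Of 20 genes of S phase 3 fell: the thymidine kinase gene Tk1 5.77-fold (-2.58 and -2.47) and Mcm6, of the replication helicase, 2.70-fold (-1.59 and -1.27) were among them. Ccnd1, the cyclin of the entry into the cycle, fell 2.93-fold (-1.53 and -1.57), and the replication clamp gene Pcna had 0.15 and -0.32. With the scanner software's log ratios the median of the cell division genes was -1.37 and that of the interferon genes -0.98.

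**Figure D4:**
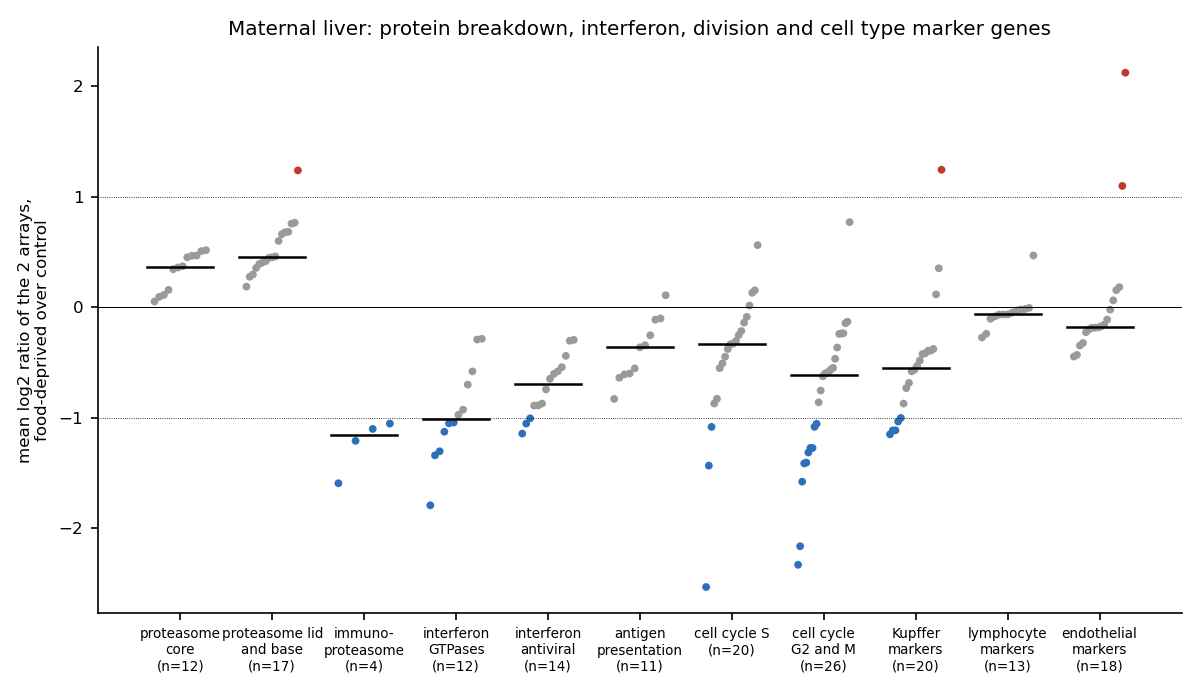
Mean log2 ratio of both arrays for each measured gene (1 point each, red called higher, blue called lower) of 11 gene groups, with a black bar at the median of each group and dotted lines at 2-fold. The proteasome core and lid and base points all lie above 0 with medians of 0.36 and 0.45, the immunoproteasome points all lie below -1, and the lymphocyte markers sit around 0 while the Kupffer markers have a median of -0.55.

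Other cell types showed few calls. Of 18 endothelial markers 2 rose, Vwf 4.34-fold (2.07 and 2.17) and Lyve1 2.14-fold (1.17 and 1.03; 0.66 over all its probes, not a call), while Pecam1, Kdr and Stab2 were not called. Of 17 stellate cell and fibroblast markers only the collagen gene Col3a1 was called, 3.19-fold lower (-1.42 and -1.92). Bile duct, muscle, erythroid and placental markers gave no call among those measured. Hepatocyte genes were strongly detected, with Alb at log2 levels of 15.25 and 16.12 in the control pool and of 15.78 and 16.16 in the food-deprived pool. Of 4 measured pancreatic genes Cela3b rose 2.08-fold (1.04 and 1.07), with 8 other pancreatic markers not well above background.

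Coagulation, complement and acute phase genes gave a few falls and no rise. Of 42 coagulation and complement genes 3 fell and 34 lay below 0 (median -0.25). These falls were the serpin genes Serpind1 (-1.24 and -1.42) and Serpinf2 (-1.16 and -1.23) and the complement gene C8a (-1.17 and -1.24). All 21 measured complement genes lay below 0 (median -0.38), while 7506 of all 15685 measured genes lay above 0. Of 28 acute phase genes 3 fell and 14 lay below 0. The share that fell over all measured genes was 2.18%. Metallothionein Mt1 rose (1.83 and 1.37), and the hepcidin relative Hamp2 fell 2.83-fold (-1.13 and -1.87) while Hamp had 0.72 and -0.05. None of 16 clock genes and none of 33 genes of DNA and histone methylation was called, and the largest shifts among clock genes were those of Per1 (0.58 and 1.17) and Dbp (-0.78 and -0.69).

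**Figure D5:**
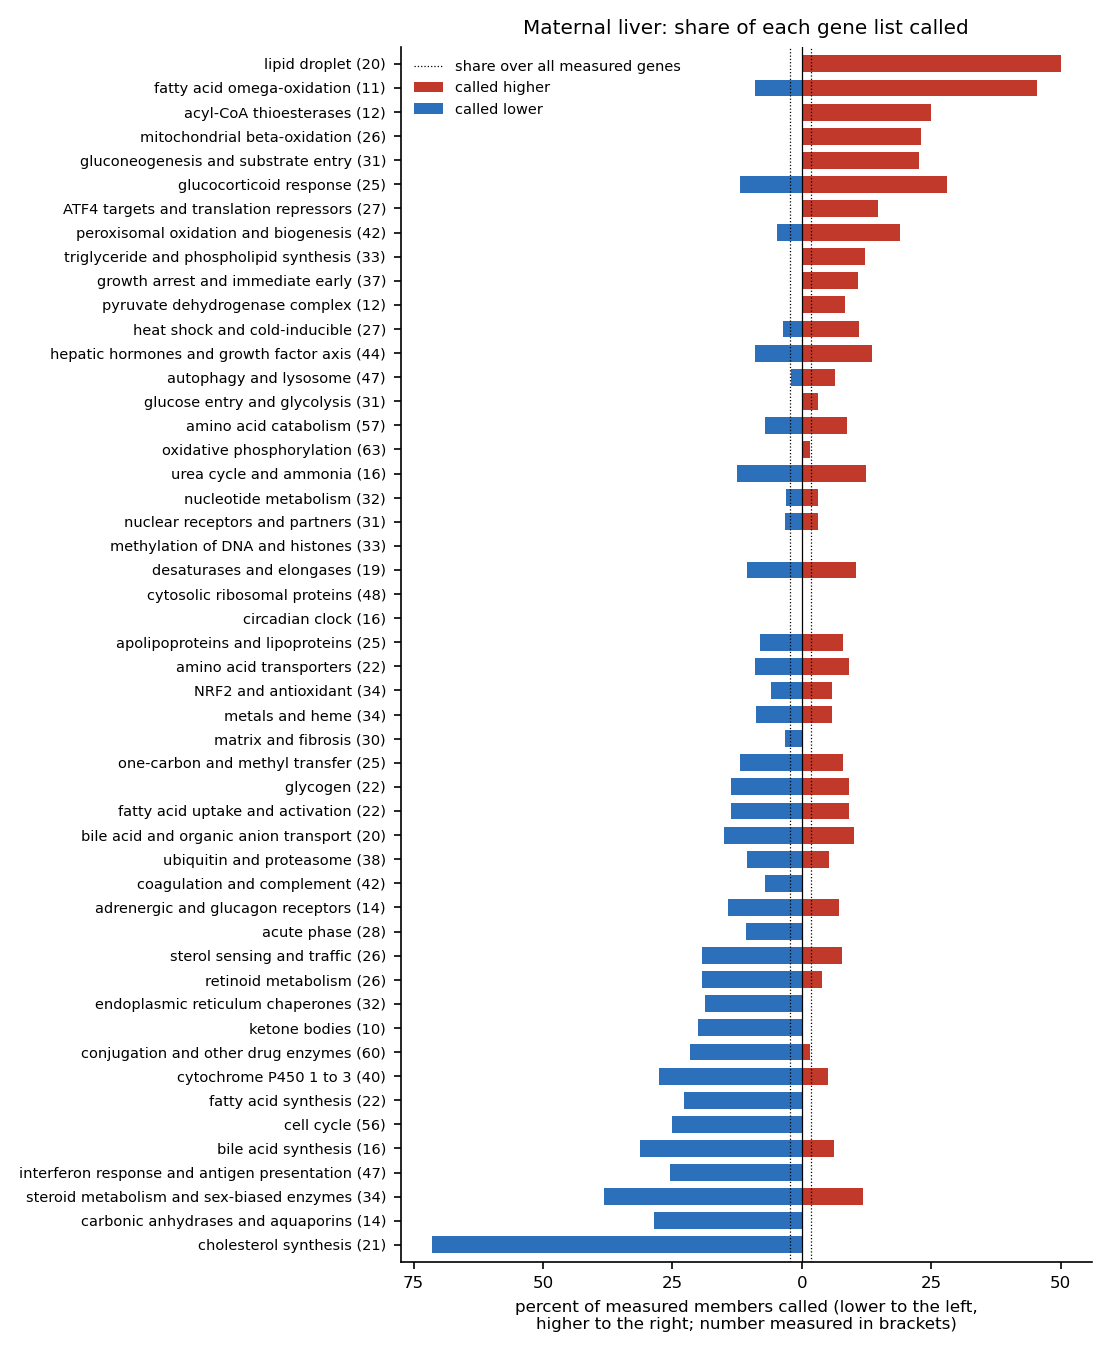
Share of the measured members of each of 50 pathway lists that was called higher (red, to the right) or lower (blue, to the left) in the food-deprived maternal liver, with the number measured in brackets and dotted lines at the shares over all measured genes (1.82% and 2.18%). Lipid droplet genes stand at the top with 10 of 20 called higher and cholesterol synthesis at the bottom with 15 of 21 called lower. Ribosomal, clock and methylation genes have no bar. The lists were chosen with earlier results of these data known, so the distance of a bar from the dotted lines is no test.

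Outside the lists, the 40 largest rises included Cgref1, a secreted calcium-binding protein gene, at 12.0-fold (3.23 and 3.94), Rab30, a small GTPase gene, at 6.47-fold (2.64 and 2.74), Gpcpd1, which breaks down glycerophosphocholine, at 6.46-fold (3.01 and 2.37) and Bmper, a regulator of bone morphogenetic proteins, at 6.32-fold (2.61 and 2.72). Nrg4, a secreted ligand of ErbB receptors, rose 5.49-fold (2.53 and 2.38), the noncoding RNA Neat1 rose 4.77-fold (2.05 and 2.46) and Rgs16, which limits G-protein signalling, rose 4.41-fold (2.17 and 2.11). The largest fall outside the lists was that of Fam47e, 7.59-fold (-3.05 and -2.80). Apol7c fell 6.00-fold (-2.67 and -2.50), Ndrg1 4.46-fold (-2.21 and -2.10), the sphingosine 1-phosphate receptor gene S1pr1 4.36-fold (-2.14 and -2.11) and Dct, a melanin synthesis gene, 4.29-fold (-2.05 and -2.15).

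The fetal livers of the same study, on the other pair of arrays, gave 140 calls among 17479 measured genes (0.801%) by the same rule. Of 607 genes called in the mother and measured in the fetus, 53 were called in the same direction there, 8.73% of the maternal calls and 43.8% of the 121 fetal calls measured in the mother. Cholesterol synthesis genes had a fetal median of -0.91 with 8 of 20 called lower, and the lipid droplet genes a fetal median of 0.08 with 1 of 21 called higher and 2 lower. Interferon genes had a fetal median of -0.11 with 1 of 47 called lower, and cell division genes a fetal median of -0.23 with none of 61 called. The difference between mother and fetus has no replicate and was not tested.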

How the data were processed

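The members and gene lists were chosen with earlier results of these data known. Per the file headers, the deposited scanner files hold red and green spot intensity values made with Agilent Feature Extraction 9.5.1.1 (9.5.3.1 per the submitters' processing notes), and log10 ratios from background-subtracted, dye-normalised signals. The authors' deposited series table holds a linear ratio per spot, which matches the scanner software's ratio but is negative on array 1. What that sign means is unknown, so its size was turned by the labels' dyes.

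Mean spot intensities were background-corrected with normexp (offset 50) and normalised within each array by loess in limma 3.58.1 (R 4.3.3). Local background of spots with a net signal under -20 was set to the array's median. Control spots had weight 0, and outlier spots were left out. The brightest measured probe stood for a gene. Array 2 was turned before averaging. With 1 pool a condition no test was made, and the number of arrays limits the precision. Genes named are list members, the 40 largest rises and 40 largest falls with a symbol, and genes called in opposite directions in mother and fetus. The calling was tested on simulated data. Some list members count in the totals but are not reported here by name. Alternatives changed the background, normalisation, filter, probe choice and array.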

Additional observations from a re-analysis of the deposited data

Results flagged for a closer look

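Of the genes called in both mother and fetus, 3 were called in opposite directions, lower in the food-deprived mother and higher in the food-deprived fetus. Inmt, an indolethylamine methyltransferase gene, had a mean log2 ratio of -1.896 in the mother (-1.99 and -1.8 on the arrays) and 1.206 in the fetus (1.25 and 1.16). Lrtm1, a leucine-rich repeat gene, had -1.654 in the mother (-1.8 and -1.51) and 1.421 in the fetus (1.26 and 1.58). Upp2, a uridine phosphorylase gene, had -1.912 in the mother (-2.14 and -1.69) and 1.286 in the fetus (1.2 and 1.37). Both arrays of each tissue agree in sign, but the difference between mother and fetus was not tested, because each condition is 1 pool.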

How the results depend on the processing

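The counts of genes called higher and lower, 286 and 342, changed by over 1.5 times under 3 alternatives. Median centring gave 77 and 91, and 129 of the 210 named calls were lost, among them Plin2, Fasn, G6pc, Pck1, Akr1c6 and Gsta3. The scanner software's log ratio gave 643 and 798, and the deposited series table gave 644 and 802. Single arrays gave 295 to 307 higher and 356 to 365 lower, by 2-fold on that array. The other settings stayed within 1.5 times of the counts, from 240 to 381 higher and from 302 to 461 lower. No called gene named in the text changed direction under these alternatives. With the mean over all probes of a gene, the calls of Etfdh, Otc, Slc6a6 and Wipi1 were lost beside those given above. With stained local background left as deposited, those of Acadl, Cela3b, Cpt1b, Cxcl10, Fitm2, Mvk, Slc40a1 and Wipi1 were lost. The cause was not tested. Dim genes have compressed ratios, since the offset is added to both dyes. No paired analysis was possible because the labels' replicate numbers mark the dye orientation of arrays that each hold both conditions.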
